A study of Mus musculus with 4 samples.

Results

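Toll-like receptors, their co-receptor Cd14 and their adaptor Myd88 were examined in RNA sequencing libraries of myeloid cells from mice with and without the inhibitory receptor PD-1 in the myeloid lineage. The set was chosen by gene symbol and held 10 of the 24706 genes in the files. It comprised 4 receptors of the cell surface (Tlr1, Tlr2, Tlr4 and Tlr6), 4 receptors of endosomes (Tlr7, Tlr8, Tlr9 and Tlr13), Cd14 and Myd88. All 10 genes had a value in each library.

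The study deleted PD-1 in myeloid cells to ask how these cells affect the developing brain, and it sequenced myeloid cells of neonatal liver to look for signals that they send. The control group, labelled wt, comprised 2 libraries from PD-1 f/f mice, which carry floxed alleles of Pdcd1, the gene of PD-1, and no Cre. The deleted group, labelled cko, comprised 2 libraries of the genotype PD-1 f/f; LysM-Cre. In this line the Lyz2 locus drives Cre, which removes the floxed part of Pdcd1 wherever that locus is active. The results of the study describe CD11b+ cells sorted from liver on postnatal day 3, whereas its methods describe RNA of livers on postnatal day 2 and call the controls wild-type. Sex, littermates and the number of pups per library were not given, so p-values measure the spread between libraries only. Cre acts in Lyz2-expressing cells, so that neutrophils, monocytes and macrophages are all targets, and a library is a mixture of these.

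Toll-like receptors bind molecules of microbes and start the inflammatory response of myeloid cells. Surface receptors meet bacterial walls, with TLR2 paired with TLR1 or TLR6 for lipoproteins and TLR4 taking lipopolysaccharide from CD14, while receptors in endosomes meet nucleic acids. Most of them recruit MyD88, which gathers IRAK kinases and TRAF6 and leads to NF-κB, AP-1 and interferon regulatory factors. Neutrophils and monocytes are known to carry TLR2, TLR4 and CD14.

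Expression is given as FPKM, which normalises counted fragments for gene length and sequencing depth, and levels of different genes are compared on this scale per length. Libraries held from 17691505 to 22212407 counted reads. Pdcd1 had 28.5 and 34.7 FPKM in wt replicates 1 and 2 and 17.1 and 21.4 FPKM in cko replicates 1 and 2, so the targeted gene was lower in both cko libraries while transcripts remained. Lyz2, which hosts the Cre, had 31306, 32147, 10422 and 8127 FPKM in the same order. Itgam, which encodes CD11b, had 48.5 to 54.3 FPKM and Ptprc, the gene of CD45, 58.1 to 75.1 FPKM in the 4 libraries. The wt replicate 2 library stood apart by sex transcripts. It had 24.9 FPKM of Ddx3y, a Y-linked gene, and 0.0119 FPKM of Xist, which is made by the inactive X chromosome, while the other libraries had at most 0.00866 and at least 4.91 FPKM. Members that lose or change a call without this library are named with their values.

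Promoter sequences of the members that moved together are shown so that the letters upstream of their start sites can be read. They are from RefSeq (GRCm38.p6), from which windows of 7 of the 10 genes were read. They run 5′ to 3′ on the strand of the gene and are limited to bases in no annotated exon. The stretches of Tlr2 and Tlr1 lie upstream of the annotated gene, whereas those of Tlr6 and Myd88 lie inside it, upstream of an internal start site. Promoters of Tlr4, Tlr7 and Cd14 were not matched. Capitals mark matches to the motifs of NF-kB, the interferon-stimulated response element, PU.1 or C/EBP, all searched on both strands.
Tlr2 (chr3:83841768-83841858, minus strand): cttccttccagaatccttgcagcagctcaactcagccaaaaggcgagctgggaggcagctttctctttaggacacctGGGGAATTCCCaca
Myd88 (chr9:119340042-119340268, minus strand): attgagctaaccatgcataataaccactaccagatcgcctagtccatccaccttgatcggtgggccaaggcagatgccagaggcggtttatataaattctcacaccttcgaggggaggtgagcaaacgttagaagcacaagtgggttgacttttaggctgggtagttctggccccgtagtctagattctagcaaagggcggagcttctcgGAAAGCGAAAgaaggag
Tlr6 (chr5:64959167-64959416, minus strand): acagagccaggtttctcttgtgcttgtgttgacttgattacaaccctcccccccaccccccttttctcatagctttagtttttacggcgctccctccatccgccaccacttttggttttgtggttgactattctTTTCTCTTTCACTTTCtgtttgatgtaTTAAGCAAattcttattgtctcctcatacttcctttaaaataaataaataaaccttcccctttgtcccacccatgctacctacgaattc
Tlr1 (chr5:64933564-64933808, minus strand): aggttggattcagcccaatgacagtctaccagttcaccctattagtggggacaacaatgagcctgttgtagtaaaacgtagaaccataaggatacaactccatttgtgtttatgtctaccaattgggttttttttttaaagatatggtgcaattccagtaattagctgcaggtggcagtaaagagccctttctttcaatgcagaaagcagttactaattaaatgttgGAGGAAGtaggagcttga

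Each of the 4 promoters held a match, and the motif differed between most of them. In Tlr2 the capitals are 2 overlapping matches to the NF-kB consensus, which begin at positions -173 and -172 from the start site. The same motif was present in 4.51% of all 32851 RefSeq promoter windows of one length, which also include the first transcribed bases. In Myd88 they are the core of an interferon-stimulated response element, 2 copies of GAAA with 2 bases between them, at position -40, and in Tlr6 they are 2 overlapping matches to this core on the opposite strand followed by a C/EBP motif (TTGCNNAA, where N is any base). The response element core was found in 3.44% of all windows and the C/EBP motif in 10.8%. In Tlr1 the capitals are the PU.1 core (GAGGAAG) at position -23, which 13.6% of all windows held. The PU.1 core was also present upstream of Tlr9 and Tlr13, and the C/EBP motif upstream of Tlr8, so that these letters were not limited to the genes that moved. AP-1 (TGANTCA) and TATA box (TATAAA) motifs, present in 7.81% and 13.6% of all windows, were also searched, and left in lower case. The former was found in Tlr9 and the latter in Myd88 and Tlr8, and a further NF-kB match in Tlr2 began at position -8, past the bases shown. For Tlr1 and Tlr6, RefSeq gives 2 start sites each, of which the one with a match is shown, and the other held no match in Tlr1 and TATA box matches alone in Tlr6. All 4 RefSeq start sites lie inside the annotated span of the gene, so that positions are not counted from its outer 5′ end, and the first bases after the Tlr6 start were in no annotated Tlr6 transcript. A match describes the letters only.

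Tlr1 and Tlr6 are neighbours on the minus strand of chromosome 5, at 64924679 to 64933563 and 64952031 to 64960097. Their longest protein-coding transcripts were 76.6% identical over aligned bases, with gaps left out. The longest run that they shared without a difference had 229 coding bases. It is shown because a read inside it cannot be assigned to either gene by sequence.
Tlr1 (chr5:64925537-64925765) and Tlr6 (chr5:64953828-64954056), both minus strand: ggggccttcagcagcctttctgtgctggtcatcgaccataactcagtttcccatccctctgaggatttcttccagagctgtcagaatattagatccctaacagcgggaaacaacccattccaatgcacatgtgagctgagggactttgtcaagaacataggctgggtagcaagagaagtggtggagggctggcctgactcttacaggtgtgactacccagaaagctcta
Of the windows of 50 bases in Tlr1, 15.3% were present in Tlr6. These are more windows than the run shown holds, so other shared runs exist, which were not located. How such reads were counted is not given in the sources used here, so that a part of the values of these genes is uncertain. No other pair compared (Tlr1 with Tlr2, Tlr2 with Tlr6, Tlr7 with Tlr8) shared more than 13 bases.

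Receptors of bacterial lipoproteins were higher in cko libraries. Tlr2, the common partner in these pairs, had 31.5 and 17.2 FPKM in wt libraries and 57.2 and 159 FPKM in cko libraries, each time in the order of replicates 1 and 2 (2106, 977, 3232 and 8497 reads). Both cko libraries lay above both wt libraries, and cko replicate 2 was far above the rest. Its log2 fold change of FPKM + 1, cko minus wt, was 1.99 with a standard error (SE) of 0.52, and passed an unadjusted p of 0.05 in limma (adjusted p = 0.214). The value was 1.26 without cko replicate 2. Without wt replicate 2 it was 1.57 and no longer passed.

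Tlr6, which pairs with TLR2 for diacylated lipoproteins, had 5.54 and 5.05 FPKM in wt and 12.8 and 19.8 FPKM in cko libraries (459, 354, 895 and 1308 reads). The wt values were close together and the cko values stood clearly above them. Its log2 fold change of 1.43 (SE 0.24) had the smallest p of the set in limma (adjusted p = 0.183). Tlr1, which pairs with TLR2 for triacylated lipoproteins, had 2.54 and 2.64 FPKM in wt and 5.36 and 8.75 FPKM in cko libraries (189, 166, 336 and 518 reads). Its groups did not overlap either, and the log2 fold change was 1.13 (SE 0.25, limma adjusted p = 0.210). Across the omissions of 1 library the log2 fold change ranged from 1.13 to 1.73 for Tlr6 and from 0.82 to 1.44 for Tlr1, and the unadjusted p of both remained under 0.05.

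The ratio of Tlr6 to Tlr1 FPKM was 2.18 and 1.92 in wt and 2.39 and 2.27 in cko libraries. It varied little, although both cko values lay above both wt values. Tlr2 exceeded Tlr1 12.4-fold and 6.53-fold in wt libraries and 10.7-fold and 18.2-fold in cko libraries. The ranges of Tlr2 to Tlr1 overlapped between the groups.

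Tlr4, the receptor for lipopolysaccharide, had 13.7 and 8.90 FPKM in wt and 13.5 and 23.8 FPKM in cko libraries (1696, 931, 1402 and 2339 reads). The cko replicate 1 value fell between the wt values, and the log2 fold change was 0.65 (SE 0.32, limma adjusted p = 0.375). Without cko replicate 2 it was 0.26. Tlr4 thus did not pass the unadjusted threshold, unlike the lipoprotein receptors, although the difference between these genes was not tested.

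Cd14, the anchored protein that hands lipopolysaccharide to TLR4, had the highest mean level of the set. It had 123 and 65.0 FPKM in wt and 151 and 439 FPKM in cko libraries (4309, 1924, 4454 and 12218 reads). The groups did not overlap, but cko replicate 1 was close to wt replicate 1. The log2 fold change of 1.51 (SE 0.55, limma adjusted p = 0.275) passed the unadjusted threshold. It rested on single libraries, since it was 0.75 without cko replicate 2 and 1.06 without wt replicate 2, where it no longer passed, and 2.28 without cko replicate 1. With the replicate number as a block it did not pass either. The ratio of Cd14 to Tlr4 FPKM was 8.98 and 7.30 in wt and 11.2 and 18.5 in cko libraries, above both wt libraries in both cko libraries.

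Ly96, which encodes the lipopolysaccharide-binding subunit MD-2 of the TLR4 complex, had 6.26 and 5.05 FPKM in wt and 5.28 and 5.59 FPKM in cko libraries (log2 fold change -0.04, SE 0.18). Its groups overlapped. Lbp, which carries lipopolysaccharide to CD14, had 33.0, 34.7, 46.9 and 32.7 FPKM, and Cd36, a scavenger receptor that works with TLR2 and TLR6, had 8.74, 4.65, 4.31 and 5.68 FPKM in wt and cko replicates 1 and 2. These overlapped as well. Of 7 tested co-receptor and ligand transfer genes, 0 passed an unadjusted p of 0.05 in limma, beside 16.4% of all tested genes.

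**Figure D1:**
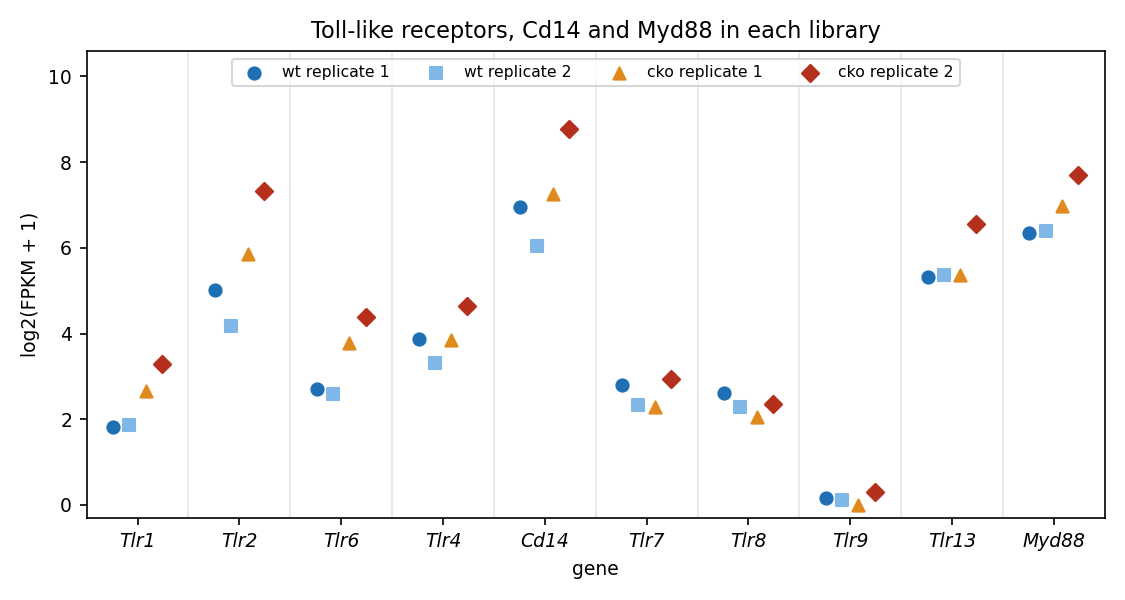
The plot shows log2(FPKM + 1) on the vertical axis for each of the 10 genes, with 1 point per library. The cko points of Tlr1, Tlr2, Tlr6, Cd14 and Myd88 lie above both wt points, while those of Tlr4, Tlr7, Tlr8 and Tlr9 overlap and cko replicate 1 of Tlr13 (40.3 FPKM) lies at the wt level.

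Endosomal receptors did not show this pattern. Tlr13, which in mice recognises bacterial ribosomal RNA and was the most abundant of them, had 39.2 and 40.2 FPKM in wt and 40.3 and 92.7 FPKM in cko libraries (3561, 3094, 3087 and 6702 reads). The first 3 libraries were alike and cko replicate 2 alone was higher. The 95% Clopper-Pearson interval of cko replicate 1, which covers counting error only, was 38.9 to 41.8 FPKM and included both wt values. Its log2 fold change was 0.61 (SE 0.38, limma adjusted p = 0.451), and without cko replicate 2 it was 0.02.

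Tlr7, a receptor for single-stranded RNA, had 5.91 and 4.03 FPKM in wt and 3.84 and 6.67 FPKM in cko libraries (536, 310, 294 and 482 reads). The cko values lay on either side of the wt values, and the log2 fold change of 0.05 (SE 0.29, limma adjusted p = 0.950) became -0.04 with median-of-ratios scaling and -0.08 with quantile scaling. Tlr8, its neighbour on the X chromosome, had 5.16 and 3.85 FPKM in wt and 3.14 and 4.13 FPKM in cko libraries (411, 260, 211 and 262 reads). It was the only member of the set whose highest library was wt, and its log2 fold change was -0.25 (SE 0.22, limma adjusted p = 0.602). Tlr7, Tlr8 and Tlr13 all lie on the X chromosome. Without wt replicate 2, the library with Y-linked transcripts, their log2 fold changes were -0.18, -0.42 and 0.63.

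Tlr9, the receptor for unmethylated CpG DNA, was almost undetected. It had 9 and 6 reads in wt and 0 and 14 reads in cko libraries, or 0.117, 0.0917, 0 and 0.228 FPKM. For the 0 reads of cko replicate 1, the 95% Clopper-Pearson interval reached 0.0566 FPKM, and a floor of 3 reads equals 0.0460 FPKM. This gene was below the mean of 1 FPKM required for testing, and no difference was detectable at this depth. Markers of plasmacytoid dendritic cells, which are known to use TLR7 and TLR9, summed to 2.77 to 4.17 FPKM over 6 genes, of which 1 reached a mean of 1 FPKM. Their defining gene Siglech had at most 0.552 FPKM.

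Unc93b1, which escorts receptors to endosomes, had 102 and 115 FPKM in wt and 116 and 118 FPKM in cko libraries, and its log2 fold change was 0.11 (SE 0.14). Hsp90b1 and Cnpy3, chaperones that fold Toll-like receptors, had log2 fold changes of 0.22 and 0.08 and did not pass an unadjusted p of 0.05 in limma. Of 8 tested genes for receptor chaperones and endosomal trafficking, 2 were higher at an unadjusted p under 0.05, namely Lrrc59 (log2 fold change 0.53) and Ap3b1 (0.43), beside 11.4% of all tested genes. Among 4 tested endosomal proteases, which cut receptors in endosomes, 1 was higher, namely Ctsl, with 12.2 and 9.76 FPKM in wt and 14.4 and 24.7 FPKM in cko libraries (0.74, and 0.37 without cko replicate 2). None of these 3 calls held without cko replicate 2 or with a replicate block, and those of Ap3b1 and Ctsl were also lost under median-of-ratios and quantile scaling.

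Myd88, the adaptor used by every receptor here, had 81.0 and 83.1 FPKM in wt and 125 and 206 FPKM in cko libraries (4634, 4029, 6037 and 9404 reads). The wt libraries differed little and both cko libraries stood above them. Its log2 fold change of 0.96 (SE 0.25, limma adjusted p = 0.214) passed the unadjusted threshold, and it was 0.60 without cko replicate 2. It no longer passed without wt replicate 1 (0.94) or without wt replicate 2 (0.98), where the size was almost the same. The span of Myd88 overlaps Acaa1a on the opposite strand, which had at most 19.4 FPKM, and whether reads were counted by strand is not given in the sources used here.

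Of the 9 tested members, 5 (Tlr1, Tlr2, Tlr6, Cd14 and Myd88) had an unadjusted p under 0.05, all of them higher in cko. Over all 10779 tested genes 16.4% passed this threshold, 11.4% as higher and 4.95% as lower in cko. With a log2 fold change above 1 and an unadjusted p under 0.01, Tlr1 and Tlr6 passed, while 1.88% of all tested genes did. In either direction, with an absolute log2 fold change above 1, the share was 2.29%. Tlr2 lay just outside. The threshold of the study's methods, an absolute log2 fold change of 1 or more with an adjusted p under 0.05, was passed by 0 genes of the whole table in limma, where the smallest adjusted p was 0.129 and 1768 genes had an unadjusted p under 0.05. When limma was run with voom on recovered reads, 2 genes passed it.

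The median log2 fold change was 0.96 over the 9 tested members and 0.09 over all tested genes. Relative to the wt mean, the median of the members was 0.60 in cko replicate 1 and 1.32 in cko replicate 2, and wt replicates 1 and 2 stood at 0.17 and -0.17. Both cko libraries were above both wt libraries for 6 of the 9 genes, against 33.6% of all tested genes, and below both for 0, against 18.0%. Tlr13 is counted among the 6 by the small margin given above. The log2 fold change was above 0 for 8 of the 9, and for 60.4% of all tested genes. The cko replicate 2 library had the highest value for 9 of the 10 members. Omission of wt replicate 2 left 2 genes past the threshold, Tlr1 and Tlr6.

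**Figure D2:**
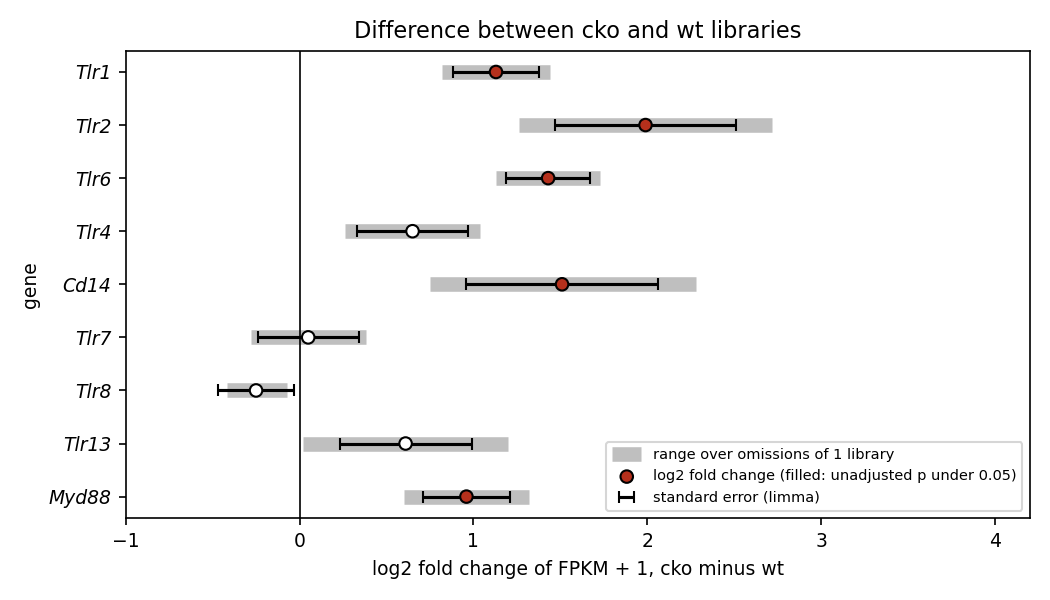
The plot shows the log2 fold change of FPKM + 1 (cko minus wt, horizontal axis) for the 9 tested genes, with limma standard errors as black bars, the range over omissions of 1 library as grey bands and filled points for an unadjusted p under 0.05. The points run from -0.25 for Tlr8 to 1.99 for Tlr2, and the grey band of Tlr7 crosses 0.

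Levels of surface receptors were next set against those of endosomal receptors within each library, a ratio that a single scaling factor per library leaves unchanged. Summed FPKM of the 4 surface receptors were 53.3 and 33.8 in wt and 88.9 and 212 in cko libraries. Those of the 4 endosomal receptors were 50.4 and 48.2 in wt and 47.3 and 104 in cko libraries. Surface sums were thus higher in both cko libraries, whereas the endosomal sum of cko replicate 1 was at the level of wt.

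The surface to endosomal ratio was 1.06 and 0.701 in wt and 1.88 and 2.04 in cko libraries. In other words, surface receptors made up 51.4% and 41.2% of the summed FPKM of the 8 receptors in wt and 65.3% and 67.1% in cko. The log2 ratio was -0.22 ± 0.42 in wt and 0.97 ± 0.08 in cko (SD, n = 2 each), a difference of 1.19 (1.15 after quantile scaling, which reshapes each library). The groups did not overlap, with p = 0.333 in a two-sided exact permutation test, the smallest value that 2 against 2 libraries allow. Between the cko libraries, the ratio was nearly the same although cko replicate 2 had higher values for most genes.

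The sums are led by Tlr2 and Tlr13, which together held between 68.2% and 79.9% of the FPKM of the 8 receptors. Without this pair, an alternative added after the values were seen, the ratio was 1.95 and 2.08 in wt and 4.53 and 4.75 in cko libraries. The log2 difference was then 1.20, and it was also 1.20 when the mean of log2(FPKM + 1) was taken over the genes of each class. Hence the separation was as large when the most abundant receptor of each class was left out. By share of the 8 receptors, which falls when another receptor rises, the surface receptors differed. The share of Tlr4 was lower in both cko libraries, at 13.25% and 10.85% in wt and 9.89% and 7.54% in cko libraries. That of Tlr1 overlapped between the groups (2.45% and 3.21% in wt, 3.94% and 2.77% in cko). Shares of Tlr2 and Tlr6 were higher in both cko libraries. Tlr4 was not set against the endosomal receptors alone.

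**Figure D3:**
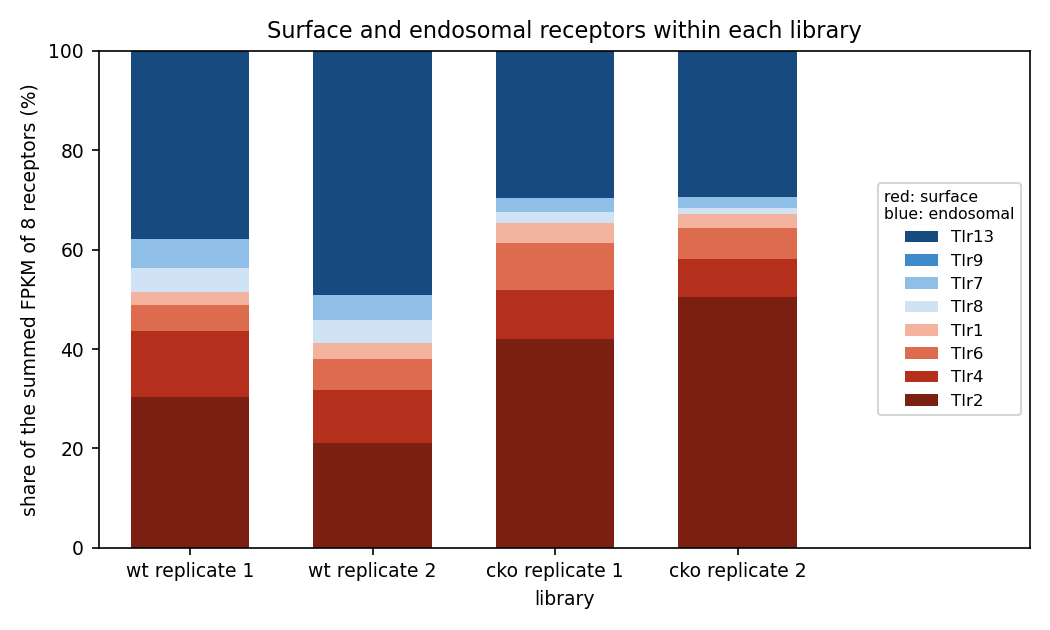
Stacked bars show the share (%) of each receptor in the summed FPKM of the 8 receptors for each library, with surface receptors in red and endosomal receptors in blue. The red part is 51.4% and 41.2% in wt and 65.3% and 67.1% in cko libraries.

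**Figure D4:**
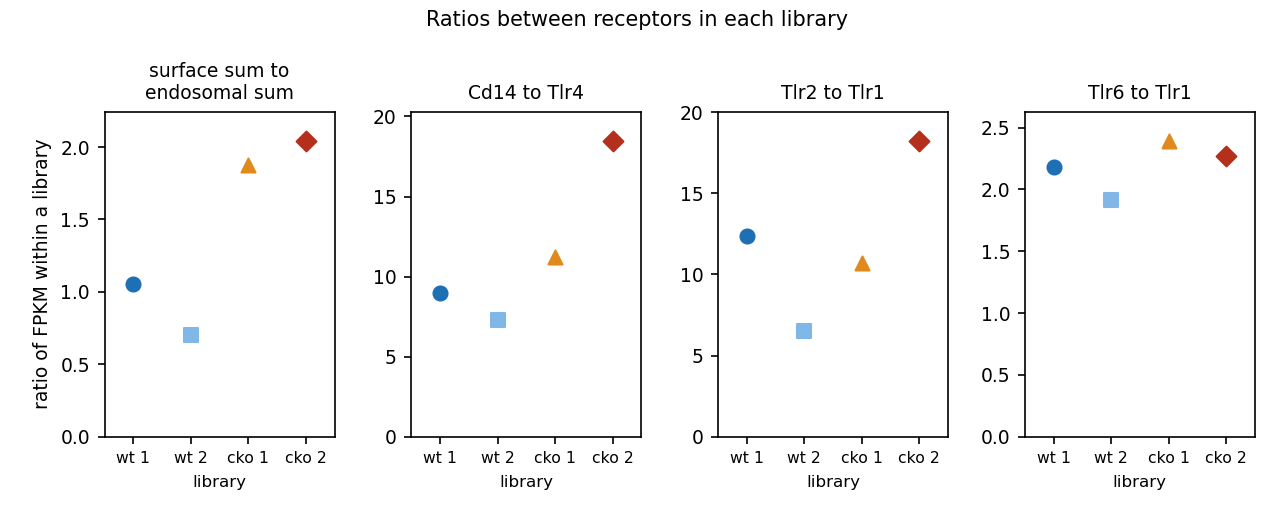
The 4 panels show ratios of FPKM within each library, namely of surface to endosomal sums, Cd14 to Tlr4, Tlr2 to Tlr1 and Tlr6 to Tlr1, with 1 point per library and axes from 0. Surface to endosomal (1.88 and 2.04 in cko) and Cd14 to Tlr4 (11.2 and 18.5 in cko) lie above both wt libraries, as does Tlr6 to Tlr1 by a small margin (1.92 to 2.39 over all libraries), while Tlr2 to Tlr1 overlaps.

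Mean levels over the 4 libraries followed the order Cd14 (194.7 FPKM), Myd88 (123.9), Tlr2 (66.3), Tlr13 (53.1), Tlr4 (15.0), Tlr6 (10.8), Tlr7 (5.12), Tlr1 (4.82), Tlr8 (4.07) and Tlr9 (0.109). Ranges over libraries of neighbouring genes overlapped except between Tlr13 and Tlr4 and between Tlr8 and Tlr9. The order differed by group. Tlr13 had a mean of 39.7 FPKM and Tlr2 of 24.3 FPKM in wt, against 66.5 and 108 FPKM in cko libraries, and Tlr8 had 4.51 and Tlr1 2.59 FPKM in wt, against 3.63 and 7.05 FPKM in cko libraries. The remaining mouse receptors were scarce. Tlr5, the flagellin receptor, had 0.947 to 1.42 FPKM and a log2 fold change of -0.23, and Tlr3, Tlr11 and Tlr12 had at most 0.737 FPKM.

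Other genes of the pathway were then counted in lists by role. Of 80 genes listed, 79 were in the files and 67 were tested. Of these, 15 (22.4%) were higher and 1 (1.49%) was lower at an unadjusted p under 0.05 in limma, beside the background of 11.4% and 4.95%. The number of the 15 that stayed past this threshold was 6 without cko replicate 2, 12 without cko replicate 1, 7 without wt replicate 1 and 5 without wt replicate 2. Under all 4 omissions 3 of the 15 stayed past it, namely Tbk1, Irf1 and Nrros (also Lrrc33). Without wt replicate 2 the others that stayed were Irak4 and Ap3b1.

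Adaptors other than Myd88 did not pass the threshold. Tirap, which bridges TLR2 and TLR4 to MyD88, had 13.4 and 16.9 FPKM in wt and 18.6 and 18.8 FPKM in cko libraries (log2 fold change 0.30). Ticam1, the TRIF adaptor of TLR3 and TLR4, and Ticam2, its bridge to TLR4, had log2 fold changes of 0.42 and 0.34. All 3 genes had both cko libraries above both wt libraries, as had 33.6% of all tested genes.

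Among 17 tested kinases and ubiquitin ligases, 5 were higher and 0 lower in limma, beside 11.4% and 4.95% of all tested genes. Irak4, the first kinase recruited by MyD88, had 6.72 and 9.20 FPKM in wt and 14.8 and 13.3 FPKM in cko libraries (log2 fold change 0.76, SE 0.20). Tbk1, a kinase that activates interferon regulatory factors, had 29.6 and 27.4 FPKM in wt and 51.5 and 46.8 FPKM in cko libraries (0.76, SE 0.14). Both were higher in cko replicate 1 than in cko replicate 2, unlike the receptors. Ikbke, a relative of Tbk1, rose by 0.89 on the log2 scale (0.56 without cko replicate 2). Irak1 and Irak2, kinases that act after Irak4, and Traf6, the ubiquitin ligase that follows them, had log2 fold changes of 0.50, 0.54 and 0.42 and did not pass the threshold.

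Of 5 tested interferon regulatory factors, 2 were higher, beside 11.4% of all tested genes. Irf1, a factor induced by interferon and NF-κB, had 25.9 and 21.2 FPKM in wt and 47.4 and 102 FPKM in cko libraries (log2 fold change 1.53, and 0.99 without cko replicate 2). Irf5, which MyD88 signalling activates, had 10.8 and 12.6 FPKM in wt and 18.5 and 37.1 FPKM in cko libraries (1.11, and 0.63 without cko replicate 2). In both genes the cko libraries lay above both wt libraries, as in 33.6% of all tested genes.

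Inhibitors of receptor signalling were mixed, with 4 of 15 tested genes higher and 1 lower, beside 11.4% and 4.95% of all tested genes. Tnip2, a partner of the ubiquitin editor A20, and Socs1, which restrains cytokine and Toll-like receptor signals, had log2 fold changes of 1.11 and 1.04 (0.71 and 0.49 without cko replicate 2). Lilrb4a, an inhibitory surface receptor, had a log2 fold change of 0.87 (0.48 without cko replicate 2). Cd200r1, the inhibitory receptor for CD200, was lower, with 44.8 and 41.8 FPKM in wt and 23.2 and 18.6 FPKM in cko libraries (log2 fold change -1.02, SE 0.17, limma adjusted p = 0.183). Irak3, the inhibitory member of the IRAK family, had 23.1 and 21.3 FPKM in wt and 22.8 and 36.9 FPKM in cko libraries and did not pass. Of 5 tested receptors of the interleukin 1 family that share MyD88, 1 was higher, beside 11.4% of all tested genes. It was Il1rap (log2 fold change 0.81, and 0.44 without cko replicate 2).

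**Figure D5:**
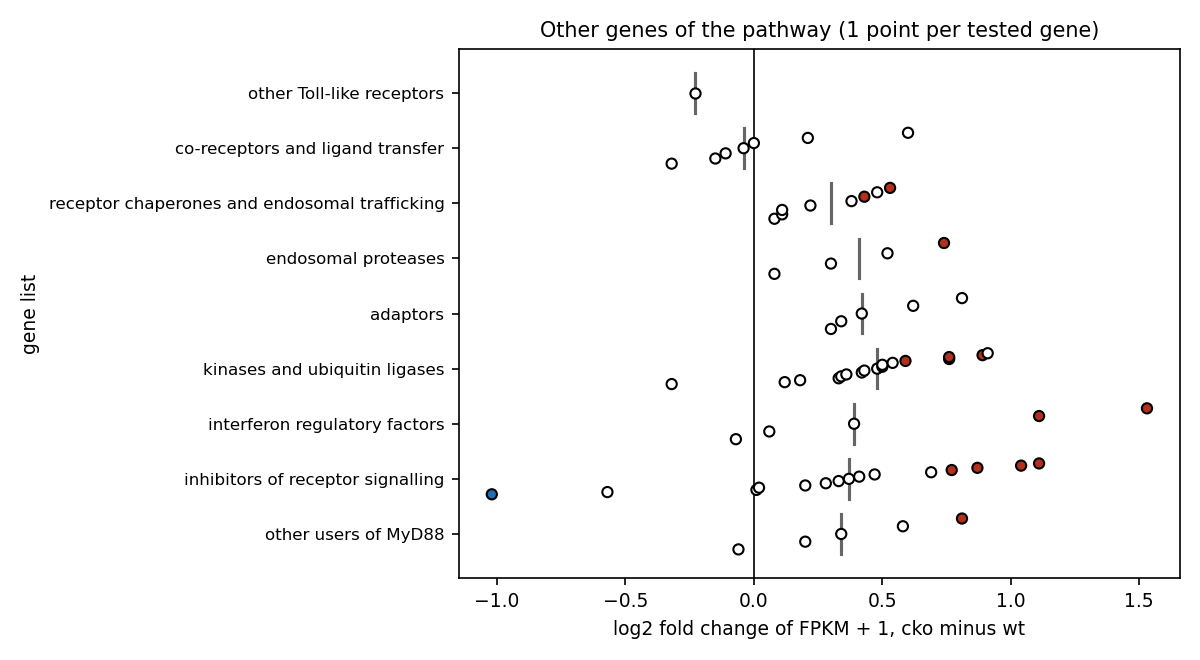
Each point is 1 tested gene of a pathway list, placed by its log2 fold change of FPKM + 1 (cko minus wt), with filled points for an unadjusted p under 0.05 (red higher, blue lower) and a grey tick for the median of the list. Medians run from -0.23 (Tlr5 alone) to 0.48 (kinases and ubiquitin ligases), and Cd200r1 at -1.02 is the single blue point.

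The cell types that carry these receptors were described by marker genes, since in bulk samples fewer cells of a type and less RNA per cell cannot be told apart. Marker genes are called higher or lower at an unadjusted p under 0.05 in limma. Over all tested genes 11.4% were higher and 4.95% lower at this threshold. Monocyte markers summed to 508 and 484 FPKM in wt and 498 and 630 FPKM in cko libraries, with 2 of 8 genes higher (F13a1 and Klf4, neither past the threshold without cko replicate 2). Ly6c2, which made up most of this sum, had 343 and 360 FPKM in wt and 333 and 315 FPKM in cko libraries (log2 fold change -0.12). Csf1r had 40.9 and 33.0 FPKM in wt and 45.6 and 113 FPKM in cko libraries (log2 fold change 0.95, limma adjusted p = 0.334, and 0.31 without cko replicate 2). Macrophage markers summed to 393 and 267 FPKM in wt and 270 and 454 FPKM in cko libraries. Of their 10 tested genes 1 was higher, namely C1qc (log2 fold change 0.55, and 0.29 without cko replicate 2). Both sums overlapped between the groups and were highest in cko replicate 2, as were most of the receptors.

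Late neutrophil markers summed to 75793 and 75585 FPKM in wt and 67323 and 52347 FPKM in cko libraries. Of 8 genes 4 were lower and 1 higher, namely Cxcr2 (log2 fold change 0.51, and 0.29 without cko replicate 2). Ngp, which made up most of this sum, overlapped, with 43779 and 43834 FPKM in wt and 46573 and 35443 FPKM in cko libraries. Markers of early neutrophils summed to 1338 and 1256 FPKM in wt and 2018 and 1663 FPKM in cko libraries, with 2 of 5 tested genes higher. Erythroid markers summed to 3714, 2334, 1416 and 1515 FPKM in the same order, with 6 of 9 tested genes lower. B cell markers summed to 56.3, 70.6, 35.7 and 46.3 FPKM, with 3 of 7 tested genes lower. Of the listed markers, Azu1, Cd8a and Ahsp had no entry in the files. Every gene in the files had a value above 0 in some library, so an entry alone does not show a cell type. Immediate early genes, which can rise when cells are handled, summed to 2981 and 2782 FPKM in wt and 3715 and 4387 FPKM in cko libraries, with 3 of 9 higher (Jun, Junb and Ier3). The part of these differences in the values of Toll-like receptors, Cd14 and Myd88 was not tested.

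The genes whose values over the 4 libraries lay closest to those of Cd14 and Myd88 were listed as a description, by the Euclidean distance of log2(FPKM + 1) centred on the wt mean. For Cd14 they were Wfdc17 (distance 0.266), Gm12250 (0.307), Gadd45b (0.314), Adora2b (0.315) and Clec4d (0.321). Wfdc17, a secreted protein of myeloid cells, had 54.5 and 37.0 FPKM in wt and 79.0 and 226 FPKM in cko libraries. Clec4d, a lectin receptor, had 37.4 and 18.6 FPKM in wt and 40.5 and 161 FPKM in cko libraries. Being chosen for closeness, these genes share with Cd14 a lower value in wt replicate 2 than in wt replicate 1 and a peak in cko replicate 2.

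For Myd88 they were Gpr84 (distance 0.0626), Apobec3 (0.0638), Nfkbiz (0.0685), Picalm (0.0696) and Cdkn1a (0.0757). Gpr84, a receptor for medium-chain fatty acids, had 56.1 and 59.4 FPKM in wt and 85.1 and 148 FPKM in cko libraries. Nfkbiz, an atypical IκB protein induced by Toll-like receptors, had 44.9 and 46.7 FPKM in wt and 69.5 and 111 FPKM in cko libraries. Here both wt values lay close together and the cko values rose in steps like those of Myd88, which follows from the choice by distance.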

How the data were processed

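RNA-seq of 2 wt and 2 cko libraries was analysed. The authors deposited FPKM values per gene, 1 file per library. Per the labels, Bowtie2 2.2.3, TopHat2 2.0.12 and HTSeq 0.6.0 were used with mm9, whereas 92.62% of gene positions in the files were identical to GENCODE M21 (GRCm38), whose coordinates are given here. Strand settings and the handling of shared reads are not given in the sources used here. For genes with 1 exon, at least 99.9% of values were whole multiples of 1 read (within 0.01 reads), which gave library totals and the reads of 97.99% of genes.

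Genes whose mean reached 1 FPKM were tested with limma 3.58.1 (R 4.3.3, lmFit, eBayes with a trend) on log2(FPKM + 1), cko minus wt, without covariates, and adjusted by Benjamini-Hochberg over 10779 genes. Fold changes on this scale understate the change of low genes. Since no gene passed the threshold of the methods, members are described by an unadjusted p under 0.05. The fit was tested on simulated data. Intervals are 95% Clopper-Pearson, and a floor of 3 reads is given where a library had 0. Tables were made with Python 3.11.15 and scipy 1.17.1.

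Members, lists of pathway and marker genes and tests were chosen with earlier results of these data known. Named pathway genes are direct partners of a member and, per list, those with the largest change past that p (at most 3 higher and 2 lower). Nrros, F13a1, Klf4, Ly6c2, C1qc, Csf1r, Siglech, Ngp, Cxcr2, Jun, Junb and Ier3 were named after their values were seen. Alternatives were pseudocounts of 0.1 and 0.01, no filter or a mean of 5 FPKM, 2 other scalings, removal of erythroid and hepatocyte genes, no trend, voom on recovered reads (mean of 10 or more), a replicate block and each library left out. The crossed block, the ratio of mean FPKM and the ratio without Tlr2 and Tlr13 were added after the values were seen. Promoter motifs were read from RefSeq (GRCm38.p6), and trimmed at exons of M21.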

Additional observations from a re-analysis of the deposited data

How the results depend on the processing

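Log2 fold changes of 38 genes, 9 of them members, were recomputed under the alternatives, and the signs of Tlr1, Tlr2, Tlr4, Tlr6, Tlr8, Tlr13, Cd14 and Myd88 did not turn under any of them. Tlr7 became -0.04 with median-of-ratios and -0.08 with quantile scaling, Cnpy3 -0.03 and -0.01, Unc93b1 -0.00 with quantile scaling and Ly96 0.14 with erythroid and hepatocyte genes removed. With 1 library left out the values ranged from -0.28 to 0.38 for Tlr7, from -0.17 to 0.09 for Ly96, from -0.05 to 0.46 for Lbp, from -0.71 to 0.08 for Cd36 and from -0.06 to 1.15 for Irak2. The number of members past an unadjusted p of 0.05 was 5, ranged from 2 (without wt replicate 2) to 7 (without cko replicate 1, which added Tlr4 and Tlr13) with 1 library left out, and was 4 to 6 otherwise. Cd14 was lost without the filter, Tlr1 was not tested at a mean of 5 FPKM, and Tlr4 was added with erythroid and hepatocyte genes removed, which raised the median of all genes from 0.09 to 0.27. At the threshold of the methods, voom gave 2 genes in place of 0.

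At an absolute log2 fold change above 1 and an unadjusted p under 0.01, 203 genes were higher and 44 lower. The counts were 146 and 65 with median-of-ratios and 150 and 79 with quantile scaling. With erythroid and hepatocyte genes removed they were 351 and 17. A minimum mean of 5 FPKM tested 5813 genes and gave 126 of these and 1135 at p under 0.05, in place of 247 and 1768. With 1 library left out, they ranged from 131 to 462 and from 845 to 1732. The cause was not tested. The surface to endosomal log2 difference was 0.89 to 1.48 over all alternatives.

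The numbers 1 and 2 are not stated to mark a litter or day. Deviations of same-numbered libraries correlated at -0.163 across genes. With 1 difference per group, this value cannot show whether same-numbered libraries share more than a number. With a replicate block, 4 members (Cd14 lost) and 1247 genes passed p under 0.05. With the pairing crossed, 6 members (Tlr4 added) and 2255 genes did, and 1 gene passed the threshold of the methods. Count models of edgeR and DESeq2 were not run on the recovered reads. With 2 libraries per group the spread is estimated from few values, and genes such as Tlr9 rest on under 15 reads.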
